A study of Mus musculus with 14 samples.

Results

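Keratins and keratin-associated proteins were taken as all genes with a symbol that begins with Krt or Krtap followed by a number, among array probe sets annotated to exactly 1 gene. This gave 108 genes of the 23156 on either array design, 54 keratins and 54 keratin-associated proteins. The first design held 53 keratins and 51 keratin-associated proteins among 22180 genes, the second held 52 and 44 among 19938, and 92 of the genes were on both. Each gene was represented by its probe set of highest mean, and dim genes were kept. The members were selected by name, and the name pattern was chosen by measured values, the difference of the Res 177 tumour from control tumours, so those values are given as a description with no test. The comparison of Res 499 with control tumours was tested.

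The samples were 14 subcutaneous tumours of B16-F10, a pigmented melanoma line of C57BL/6 mice, and total RNA of each was read on 1 array. Per the labels, B16-F10 cells in Matrigel were injected into both flanks of C57BL/6 mice, 1 flank received 20 Gy of radiation at day 8, and the CTLA4-blocking antibody 9H10 was injected at day 5, day 8 and day 11. Cells of unirradiated tumours that resisted or relapsed gave the sublines Res 499 and Res 177, which are labelled resistant to that combination, and the control subline is labelled sensitive, and all 3 share the B16-F10 background. The labels state neither whether a subline is 1 clone nor whether the tumours measured were themselves treated. The first design held 4 control, 7 Res 499 and 1 Res 177 tumours, and the second held 1 control and 1 Res 177 tumour. All values are log2 expression values, on which a difference of 1 is a 2-fold difference.

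Keratins are the intermediate filament proteins of epithelial cells, and a type I keratin pairs with a type II keratin to build a filament. Basal cells of the epidermis make Krt5 and Krt14, the layers above them Krt1 and Krt10, wounded or rapidly growing epidermis Krt6a, Krt6b, Krt16 and Krt17, and the inner root sheath that moulds the growing hair makes Krt25 to Krt28 and Krt71 to Krt74. Keratin-associated proteins fill the space between keratin filaments in the hair shaft and are grouped into high glycine-tyrosine, high sulphur and ultra-high sulphur classes by their amino acid content. Melanocytes, from which melanoma arises, sit among the keratinocytes of skin and hair follicles and pass pigment to them.

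The tumours carried the melanocyte markers that their label calls for. Of 9 such genes on the first design, all were in the upper 50% of genes by mean, and Pmel, a protein of the melanosome, stood at 13.26 ± 0.07 (SD, n = 4) in control tumours and at 13.36 in the Res 177 tumour. Array medians of the first design lay between 5.70 and 5.80, and correlations between its arrays over genes between 0.985 and 0.996. The members lay low on this scale. Of the 104 on the first design, 42 were in the lowest 25% of genes by mean, 8 keratins and 34 keratin-associated proteins, and 62 passed such a filter. A member that lies high only in the Res 177 tumour can pass through that tumour alone.

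Promoter sequences of 85 members were found in the RefSeq table (build GRCm38.p6), where the 250 bases before the start of each transcript were searched on both strands for TATAAA (reverse complement TTTATA), the core of the TATA box. It occurred in 12.4% of all 32851 promoters, in 17 of 37 keratin promoters (45.9%), in 39 of 49 promoters of keratin-associated proteins (79.6%) and in all 7 promoters listed for inner root sheath keratins. These 7 belong to Krt25, Krt26, Krt27, Krt28, Krt71, Krt72 and Krt73, and Krt74 is not among them. Read only in the direction of the gene, TATAAA occurred in 7.59% of all promoters. The counts were then 15 of 37, 39 of 49 and 6 of 7. AGATAA (reverse complement TTATCT), a form of the GATA motif, occurred in 9.99% of all promoters, 24.3% of keratin promoters, 22.4% of those of keratin-associated proteins and 4 of 7 of the inner root sheath. CTTTGA (reverse complement TCAAAG), a form of the LEF/TCF motif, occurred in 13.8%, 24.3% and 24.5%, and in 1 of 7 of the inner root sheath. A match is a match of letters and no measured binding. The promoters of Krt25, Krt71, Krt73 and Krtap8-1 are shown as examples. These inner root sheath keratins and this hair protein differed by 2-fold or more on both designs. So did Krt27, Krt28 and other members, whose promoters are not shown. The sheath promoters shown are all among the 4 of 7 with AGATAA, so they do not stand for the class. Each reads 5′ to 3′ toward its gene, with TATAAA and AGATAA in capitals.
Krt25 (chr11:99322952-99323201, minus strand): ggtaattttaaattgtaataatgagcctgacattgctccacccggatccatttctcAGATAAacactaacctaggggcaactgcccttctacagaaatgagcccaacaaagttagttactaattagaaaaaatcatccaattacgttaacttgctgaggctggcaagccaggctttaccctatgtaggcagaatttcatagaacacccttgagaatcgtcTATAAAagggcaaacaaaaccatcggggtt
Krt71 (chr15:101743098-101743347, minus strand): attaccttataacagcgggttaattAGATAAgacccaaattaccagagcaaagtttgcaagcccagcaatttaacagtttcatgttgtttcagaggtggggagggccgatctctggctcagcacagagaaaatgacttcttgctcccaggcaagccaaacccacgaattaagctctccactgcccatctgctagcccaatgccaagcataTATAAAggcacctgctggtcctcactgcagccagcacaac
Krt73 (chr15:101802361-101802610, minus strand): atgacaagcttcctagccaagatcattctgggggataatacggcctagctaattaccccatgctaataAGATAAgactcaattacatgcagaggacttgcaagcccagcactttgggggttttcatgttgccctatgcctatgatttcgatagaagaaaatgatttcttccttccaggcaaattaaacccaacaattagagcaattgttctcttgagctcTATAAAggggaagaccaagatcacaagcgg
Krtap8-1 (chr16:89487953-89488202, minus strand): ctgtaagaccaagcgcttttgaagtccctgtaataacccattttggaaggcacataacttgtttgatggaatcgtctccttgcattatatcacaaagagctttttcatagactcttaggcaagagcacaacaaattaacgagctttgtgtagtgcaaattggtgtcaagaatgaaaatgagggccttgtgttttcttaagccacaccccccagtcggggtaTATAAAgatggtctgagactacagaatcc
TATAAA began 30 bases before the start of Krt25 and Krt73, 40 before that of Krt71 and 29 before that of Krtap8-1. AGATAA began 194, 225 and 182 bases before the start of Krt25, Krt71 and Krt73. Krt71 and Krt73 also shared the run ttgcaagcccagca, the longest exact run among the 21 pairs of inner root sheath promoters, whose median was 9 bases.

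In the Res 177 tumour of the first design, many keratins and keratin-associated proteins stood above every other tumour. Of 53 keratins 16 were at least 2-fold above the control mean, and of 51 keratin-associated proteins 15. No member was lower by as much. Of all 22180 genes, 0.879% were higher and 0.0225% lower by that fold, and since the members were picked for this difference nothing is read from the contrast. The median difference was 0.27 over keratins (range -0.24 to 4.33), 0.39 over keratin-associated proteins (range -0.30 to 4.01) and 0.01 over all genes. The Res 177 tumour was above all 11 other tumours for 31 keratins and 35 keratin-associated proteins, against 7.1% of all genes, and below all of them for Krtap5-3 and Krtap12-1, against 4.71% of all genes. With the lowest 50% of genes by mean left out, 1 keratin and 1 keratin-associated protein were at least 2-fold above the control mean. The comparison has 1 tumour in 1 arm and no replicate check.

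**Figure D1:**
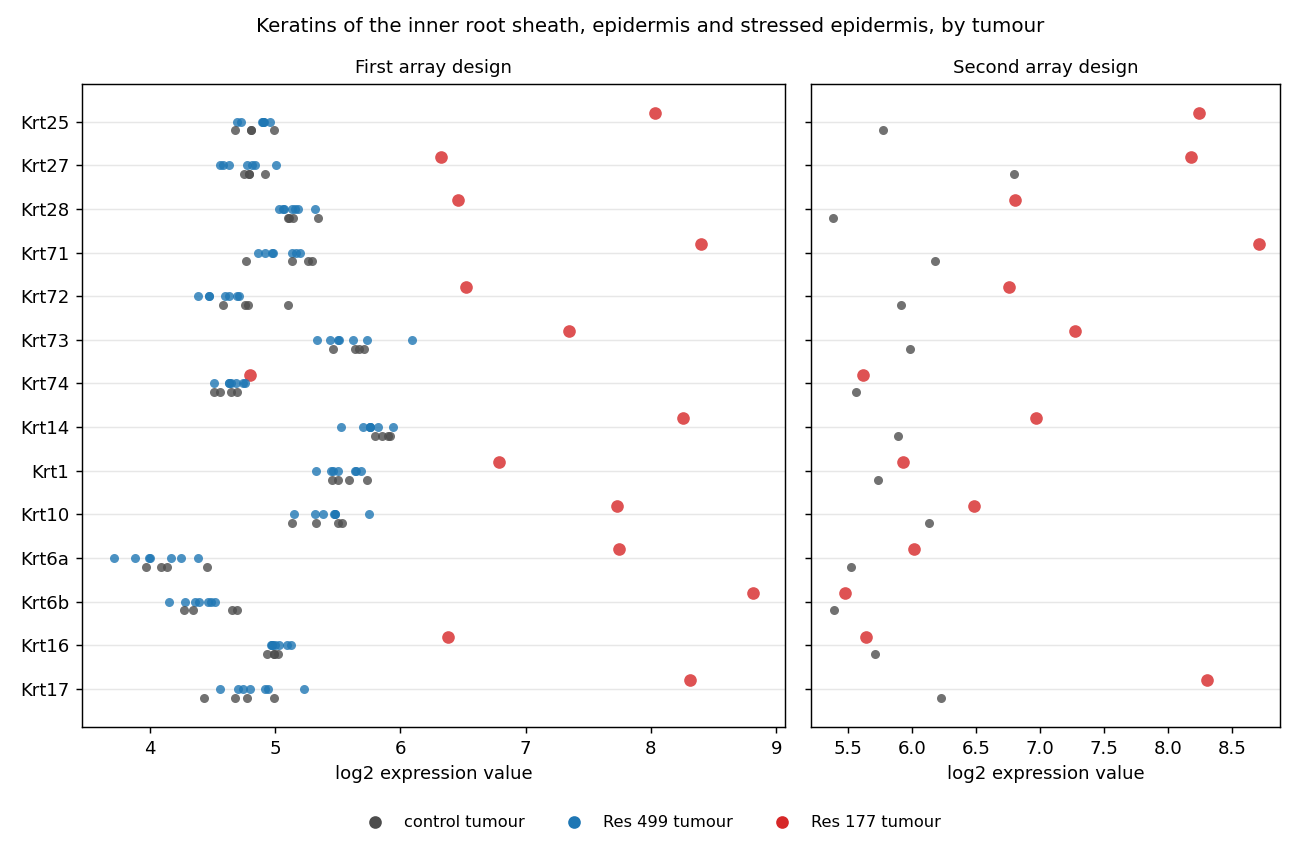
Log2 expression value of keratins (rows) in each tumour, on the first array design (left) and the second (right), with control tumours in grey, Res 499 in blue and Res 177 in red. On the first design the Res 177 point of Krt25, at 8.03, lies to the right of the other 11 tumours, which end at 4.99.

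Most inner root sheath keratins were at least 2-fold higher in the Res 177 tumour. Krt71, a type II keratin of all inner root sheath layers, read 4.76, 5.14, 5.26 and 5.30 in the 4 control tumours, between 4.87 and 5.20 (median 4.98) in the 7 Res 499 tumours and 8.40 in the Res 177 tumour, a 9.75-fold difference from the control mean. Krt25, a type I keratin of the same sheath, read 4.68, 4.81, 4.81 and 4.99 in the 4 control tumours, between 4.69 and 4.96 (median 4.91) in the 7 Res 499 tumours and 8.03 in the Res 177 tumour, a 9.26-fold difference. Control and Res 499 tumours overlapped for both genes and the Res 177 tumour stood clear of all of them. Krt73 read 5.67, 5.46, 5.71 and 5.64 in the 4 control tumours, between 5.33 and 6.10 (median 5.51) in the 7 Res 499 tumours and 7.34 in the Res 177 tumour. Krt72 read 4.79, 4.76, 4.59 and 5.10 in the 4 control tumours, between 4.39 and 4.71 (median 4.60) in the 7 Res 499 tumours and 6.52 in the Res 177 tumour. These are type II keratins of the sheath cuticle, and for both the Res 177 tumour was again the highest of the 12.

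Krt27, a type I sheath keratin, read 4.79, 4.75, 4.92 and 4.79 in the 4 control tumours, between 4.56 and 5.01 (median 4.78) in the 7 Res 499 tumours and 6.32 in the Res 177 tumour. Krt28 read 5.14, 5.11, 5.34 and 5.10 in the 4 control tumours, between 5.03 and 5.32 (median 5.13) in the 7 Res 499 tumours and 6.46 in the Res 177 tumour. For both of these type I keratins the 11 other tumours lay close together and the Res 177 tumour lay above them. Krt74, which is found in the Huxley layer of the sheath, read 4.69, 4.56, 4.51 and 4.65 in the 4 control tumours, between 4.51 and 4.76 (median 4.65) in the 7 Res 499 tumours and 4.80 in the Res 177 tumour, and its difference of 0.20 was the smallest of the class. Krt26 differed by 0.74. Of the 8 sheath keratins 6 were at least 2-fold higher, with a median difference of 1.61. All 8 lay in the lowest 50% of genes by mean, and 3 of them in the lowest 25%.

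Of 2 basal and 5 suprabasal epidermal keratins on the first design, 1 and 2 were at least 2-fold higher in the same tumour. Each of these epidermal keratins lay in the lowest 50% of genes by mean. Krt14, the type I keratin of the basal layer, read 5.85, 5.90, 5.92 and 5.79 in the 4 control tumours, between 5.53 and 5.94 (median 5.76) in the 7 Res 499 tumours and 8.26 in the Res 177 tumour. Its partner Krt5 was on the second design only. Krt10 and Krt1, the pair made above the basal layer, were both measured. Krt10 was at 5.54, 5.14, 5.33 and 5.50 in the 4 control tumours, between 5.15 and 5.75 (median 5.47) in the 7 Res 499 tumours and 7.73 in the Res 177 tumour. Krt1 was at 5.73, 5.45, 5.59 and 5.50 in the 4 control tumours, between 5.33 and 5.68 (median 5.50) in the 7 Res 499 tumours and 6.79 in the Res 177 tumour. For all 3 genes control and Res 499 tumours overlapped and Res 177 lay above both, by 2.39, 2.35 and 1.22 against the control mean. The median over these 3 genes was 2.35, and all 3 were at least 2-fold higher. Over the 7 sheath keratins without Krt26 the median was 1.71, and 6 were at least 2-fold higher. The other epidermal keratins differed by less than 2-fold, Krt77 by 0.68, Krt15 by 0.36, Krt2 by 0.14 and Krt9 by 0.03.

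Among keratins of wounded and fast-growing epidermis, all 4 were at least 2-fold higher, with a median difference of 3.59. These 4 also lay in the lowest 50% of genes by mean. Krt6b read 4.27, 4.69, 4.65 and 4.34 in the 4 control tumours, between 4.15 and 4.52 (median 4.40) in the 7 Res 499 tumours and 8.82 in the Res 177 tumour, a 20.1-fold difference and the largest among the 104 members. Krt6a, its near-identical neighbour, read 4.09, 4.46, 4.13 and 3.97 in the 4 control tumours, between 3.71 and 4.39 (median 4.0) in the 7 Res 499 tumours and 7.74 in the Res 177 tumour, and how far each probe set reads the other gene was not tested. Both genes were high in the Res 177 tumour alone. Krt17, which the follicle makes as well as wounded epidermis, read 4.77, 4.68, 4.43 and 4.99 in the 4 control tumours, between 4.56 and 5.23 (median 4.80) in the 7 Res 499 tumours and 8.31 in the Res 177 tumour. Krt16, a partner of Krt6a, read 4.99, 4.99, 5.03 and 4.93 in the 4 control tumours, between 4.97 and 5.13 (median 5.00) in the 7 Res 499 tumours and 6.38 in the Res 177 tumour. For all 4 the Res 177 tumour was the only one of the 12 above the overlapping range of control and Res 499 tumours.

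Of 3 keratins of the companion layer and upper follicle, 2 were at least 2-fold higher, with a median of 1.30. Krt75, of the companion layer beside the inner root sheath, and Krt79, of the upper follicle, were each higher by 1.30. Krt80, listed with them, was higher by 0.56, and there the Res 177 tumour was not the highest of the 12. The remaining keratin classes differed less. Of 15 hair shaft keratins, 1 was at least 2-fold higher, Krt34 of the hair cortex, by 1.13, and the class median was 0.23. Krt33a, another hair cortex keratin, differed by 0.83. None of 6 keratins of simple epithelia, such as Krt8 and Krt18, and none of 9 mucosal, corneal and other keratins was higher by 2-fold, with medians of 0.10 and -0.01. The most negative differences were -0.24 for Krt87, -0.19 for Krt19 and -0.10 for Krt36. By filament type, 8 of 28 type I and 8 of 25 type II keratins were at least 2-fold higher.

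**Figure D2:**
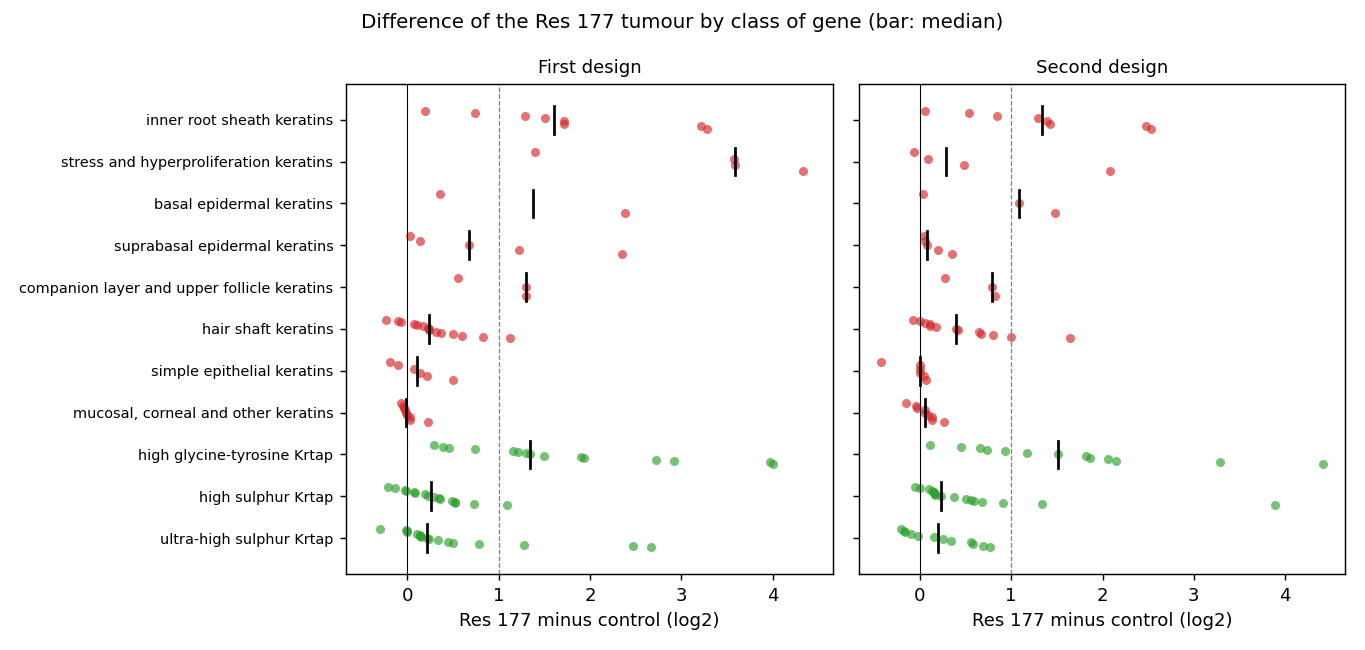
Res 177 minus control (log2) of each member, by class of keratin or keratin-associated protein, on the first and second array designs. Points of the inner root sheath class lie mostly above 1 on both designs, with medians of 1.61 and 1.34, and those of simple epithelial keratins lie between -0.43 and 0.50.

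Among keratin-associated proteins, the high glycine-tyrosine families held 11 of the 15 genes that were at least 2-fold higher in Res 177. The split by class was made after the values were seen and carries no test. These families (6, 7, 8 and 18 to 22) have 15 genes on the first design, their median difference was 1.35, and for all 15 the Res 177 tumour stood above the 11 other tumours. Of these 15 genes 14 lie in the lowest 25% of all genes by mean, and with those 25% left out the count over keratin-associated proteins went from 15 to 1. Of 17 ultra-high sulphur genes 3 were at least 2-fold higher, with a median of 0.22, and of 16 high sulphur genes 1, Krtap14, by 1.09, with a median of 0.26. Families 4, 6 and 19 hold closely similar copies, and how far their probe sets read one another was not tested.

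Krtap8-1, a high glycine-tyrosine protein of the hair cortex, read 3.89, 4.0, 3.98 and 4.10 in the 4 control tumours, between 3.86 and 4.19 (median 3.94) in the 7 Res 499 tumours and 8.00 in the Res 177 tumour, a 16.1-fold difference. Krtap19-1 read 3.89, 3.66, 3.70 and 4.06 in the 4 control tumours, between 3.73 and 4.14 (median 3.85) in the 7 Res 499 tumours and 7.80 in the Res 177 tumour. Krtap6-1 read 3.59, 3.66, 3.63 and 3.65 in the 4 control tumours, between 3.56 and 3.67 (median 3.59) in the 7 Res 499 tumours and 6.55 in the Res 177 tumour. In these high glycine-tyrosine genes the 11 other tumours lay close together and only the Res 177 tumour was above them. Krtap7-1 read 3.84, 3.83, 3.89 and 4.01 in the 4 control tumours, between 3.81 and 4.04 (median 3.85) in the 7 Res 499 tumours and 5.79 in the Res 177 tumour. Krtap19-5 read 4.42, 4.52, 4.58 and 4.63 in the 4 control tumours, between 4.21 and 4.55 (median 4.39) in the 7 Res 499 tumours and 6.48 in the Res 177 tumour. Krtap4-2, of an ultra-high sulphur family, read 3.74, 3.63, 3.66 and 3.42 in the 4 control tumours, between 3.49 and 3.84 (median 3.61) in the 7 Res 499 tumours and 6.28 in the Res 177 tumour. The Res 177 tumour was again the highest for each, and Krtap19-9b and Krtap4-1 differed by 2.72 and 2.47. The most negative differences were -0.30 for Krtap5-3, -0.22 for Krtap12-1 and -0.14 for Krtap31-2.

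**Figure D3:**
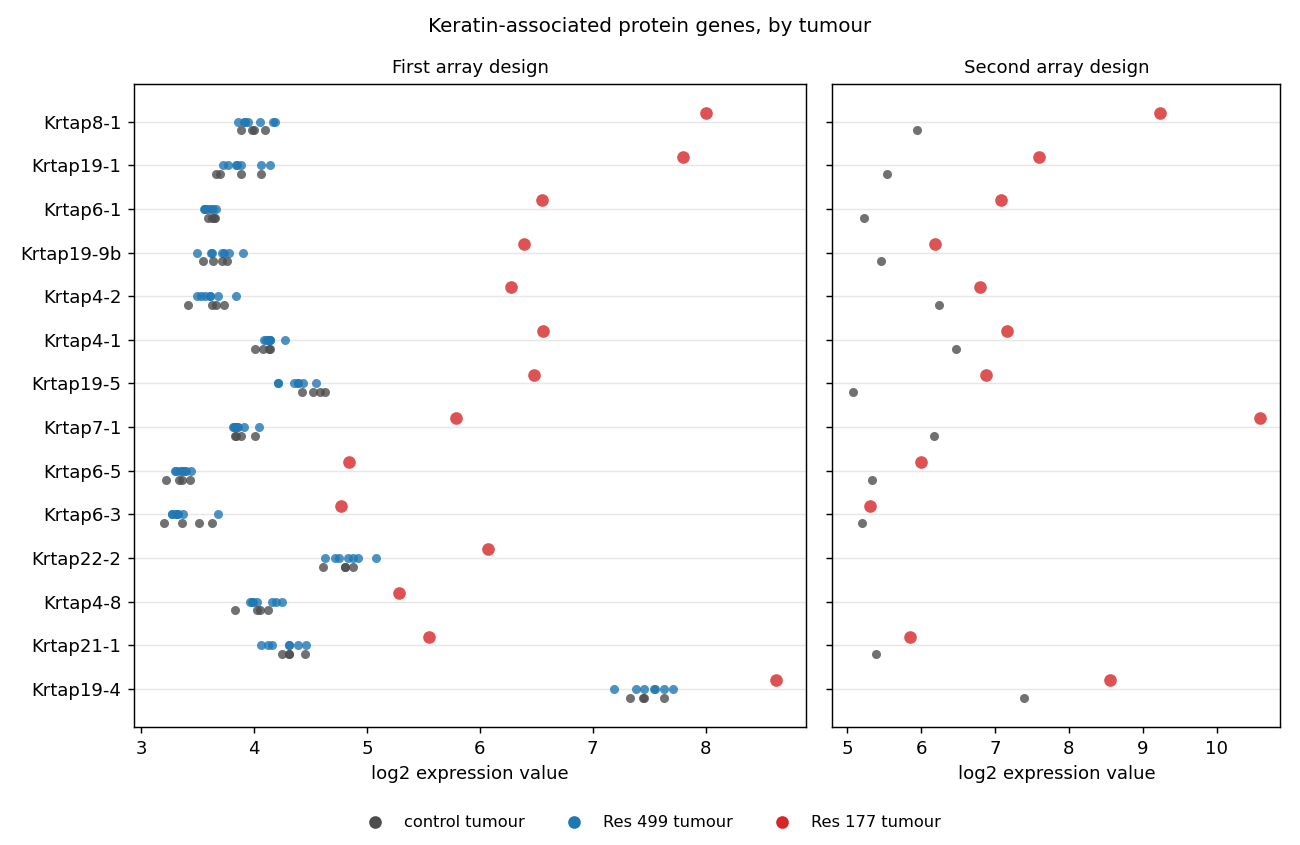
Log2 expression value of keratin-associated protein genes (rows) in each tumour, on the first array design (left) and the second (right), with control tumours in grey, Res 499 in blue and Res 177 in red. Krtap8-1 lies between 3.86 and 4.19 in 11 tumours of the first design and at 8.00 in the Res 177 tumour.

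The second design gave another Res 177 tumour and another control tumour, normalized apart from the first 12. Of 52 keratins 9 were at least 2-fold higher in Res 177, and of 44 keratin-associated proteins 10, against 0.928% of all 19938 genes. None was lower by that fold, against 0.341% of all genes. The median difference was 0.13 over keratins, 0.48 over keratin-associated proteins and 0.03 over all genes. With 1 tumour a group there is no test, and a difference between the designs cannot be told apart from one between the tumours or between the probe sets.

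The inner root sheath keratins were higher in Res 177 on this design as well. Krt71 read 6.18 in the control tumour and 8.71 in the Res 177 tumour, a 5.79-fold difference. Krt25 read 5.78 in the control tumour and 8.25 in the Res 177 tumour, a 5.54-fold difference. Krt27, Krt28 and Krt73 differed by 1.39, 1.43 and 1.29, Krt72 by 0.84 and Krt74 by 0.06. Of the 8 sheath keratins 5 were at least 2-fold higher, with a median of 1.34, and all 5 were also at least 2-fold higher on the first design. Over these 8 genes the differences of the designs correlated at a Pearson r of 0.95 and a Spearman rho of 0.79, a description across genes read in the same few tumours.

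Several epidermal and wound keratins were unlike between the designs, while Krt14 and Krt17 were at least 2-fold higher on both. Krt14 read 5.89 in the control tumour and 6.97 in the Res 177 tumour, and its partner Krt5 read 6.11 in the control tumour and 7.59 in the Res 177 tumour. Krt10 and Krt1 differed by 0.35 and 0.20, where the first design gave 2.35 and 1.22. For the 4 epidermal keratins Krt5, Krt14, Krt1 and Krt10 the median was 0.72 and 2 were at least 2-fold higher. The 7 sheath keratins without Krt26 gave a median of 1.39 and 5. On the first design, without Krt5, the order of these medians was the reverse, 2.35 for epidermal and 1.71 for sheath keratins. Krt6b read 5.39 in the control tumour and 5.48 in the Res 177 tumour, a difference of 0.09 where the first design gave 4.33. Krt6a and Krt16 differed by 0.49 and -0.07. Krt17, in contrast, read 6.23 in the control tumour and 8.31 in the Res 177 tumour, a 4.23-fold difference.

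Of 13 hair shaft keratins on the second design, 1 was at least 2-fold higher in Res 177, Krt33a of the hair cortex, and the class median was 0.40. Krt33a read 6.27 in the control tumour and 7.92 in the Res 177 tumour, a difference of 1.64. Krtap7-1 read 6.17 in the control tumour and 10.59 in the Res 177 tumour, a 21.4-fold difference and the largest of the 96 members. Krtap8-1 read 5.94 in the control tumour and 9.23 in the Res 177 tumour, a 9.74-fold difference. These are the cortex proteins that also stood out on the first design. Krtap15, a high sulphur gene on this design only, read 5.25 in the control tumour and 9.13 in the Res 177 tumour. Krtap19-3 read 5.18 in the control tumour and 7.33 in the Res 177 tumour, where the first design gave a difference of 0.29. Of 13 high glycine-tyrosine genes 8 were at least 2-fold higher, of 12 ultra-high sulphur genes 0, and of 17 high sulphur genes 2, Krtap15 and Krtap11-1 (by 1.34). Among keratins the most negative differences were -0.43 for Krt8, -0.15 for Krt13, -0.08 for Krt36 and -0.07 for Krt16. Among keratin-associated proteins they were -0.21 for Krtap5-2, -0.18 for Krtap5-4, -0.16 for Krtap5-1 and -0.10 for Krtap31-1.

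Of the 92 members on both designs, 29 were at least 2-fold higher on the first, 17 on the second and 13 on both, which is 44.8% of the first list and 76.5% of the second. Over all 18962 genes on both designs the lists held 175 and 173 genes and shared 88, which is 50.3% and 50.9%. The 13 members were Krt14, Krt17, Krt25, Krt27, Krt28, Krt71, Krt73, Krtap6-1, Krtap7-1, Krtap8-1, Krtap19-1, Krtap19-4 and Krtap19-5. They are 5 keratins of the inner root sheath, the keratins Krt14 and Krt17, and 6 high glycine-tyrosine proteins. Across genes, the differences on the designs had a Pearson r of 0.61 over 51 keratins, 0.64 over 41 keratin-associated proteins and 0.56 over all genes, given as a description since genes are not independent and each design's values share their tumours.

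**Figure D4:**
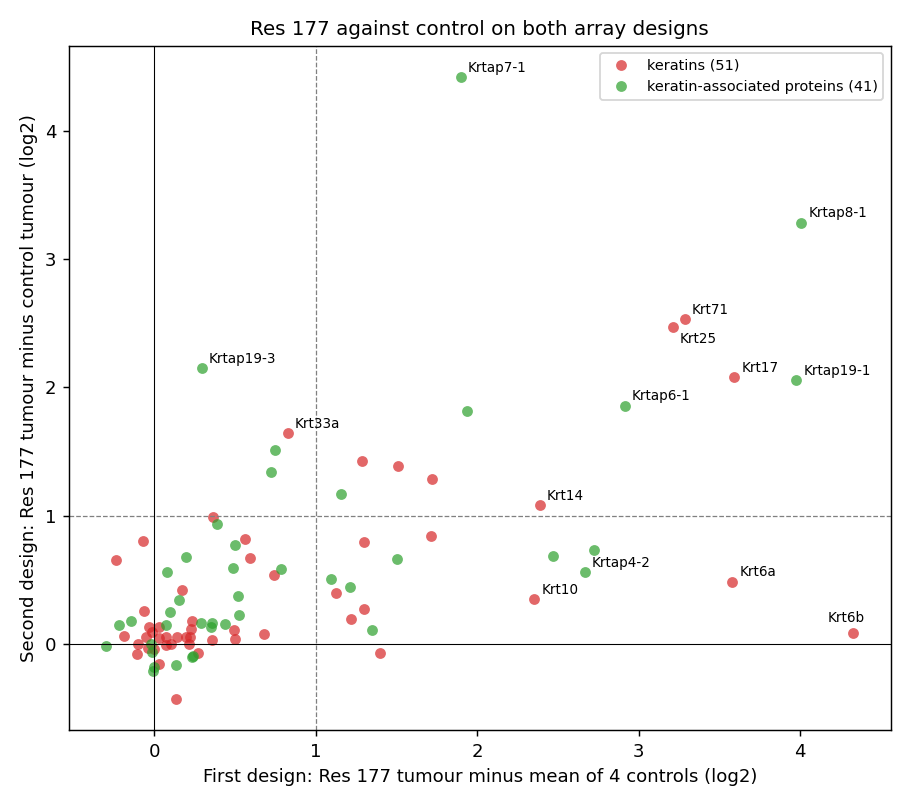
Res 177 minus control (log2) on the second array design against that on the first, 1 point per gene on both designs, with keratins and keratin-associated proteins marked. Krt25, Krt71 and Krtap8-1 lie high on both axes, and Krt6b lies at 4.33 on the first and 0.09 on the second.

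The members sit in clusters of neighbouring genes, as RefSeq orders them. Of 107 members found there, 93 lay in a run of 2 or more members with no other gene between. The run Krtap14, Krtap15, Krtap19-1, Krtap19-2, Krtap19-3, Krtap19-4, Krtap19-5, Krtap19-9b and Krtap16-3 held 5 genes at least 2-fold higher on the first design and 6 on the second. The run of Krtap21-1, Krtap6-2, Krtap8-1, Krtap7-1 and Krtap11-1 held 3 on each. A run of 15 keratins from Krt6b and Krt6a over Krt5, Krt71, Krt72 and Krt73 to Krt8 and Krt18 held 7 and 3, and its last members, Krt8 and Krt18 of simple epithelia, differed by 0.14 and 0.22 on the first design. A run of 11, Krt80 to Krt75, with many type II hair keratins, held 1 and 0. The longest runs, of 19 and 17 members on chromosome 11, held 4 and 3 each. Some members of these runs were on 1 design only, among them Krtap15 and Krt5, which had no value on the first.

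Genes of other parts of skin epithelium were read from lists. Of 10 genes of trichohyalin and protein crosslinking, 2 were at least 2-fold higher in Res 177 on the first design, and of 11 on the second 4. Over all genes the shares higher by that fold were 0.879% and 0.928%. Tchh, the trichohyalin that fills inner root sheath cells, was higher by 5.06 and 1.24, and Prr9 by 2.45 and 1.09. The crosslinking medians were 0.36 and 0.30, with 9 of 10 and 8 of 11 genes above 0. Of 17 desmosome genes 5 were higher by that fold on the first design and 3 of 15 on the second. Among them were Dsp, the desmoplakin that ties keratin filaments to the desmosome, by 2.91 and 1.20, and Perp by 3.01 and 1.83. The medians of this list were 0.47 and 0.19, with 14 of 17 and 12 of 15 genes above 0. Pkp2 differed by -0.53 and -0.17, and Jup by -0.17 and -0.25. Of 13 cornified envelope genes 3 were at least 2-fold higher on the first design and 1 on the second, with Krtdap at 2.31 and 0.18. The cornified envelope medians were 0.46 and 0.12, with 13 of 13 and 7 of 13 genes above 0. Of 12 other keratinocyte genes 2 and 1 were higher, with Serpinb5 at 2.69 and 1.56 and Trp63, a transcription factor of basal keratinocytes, at 0.49 and -0.03. Of 17 follicle regulators, such as Foxn1 and Hoxc13, and 18 on the second design, 0 were. In Res 499 against control limma called 0 genes of these 5 lists, and 0 of 10 crosslinking, 2 of 17 desmosome, 1 of 13 cornified envelope, 1 of 12 keratinocyte and 2 of 17 regulator genes had an unadjusted limma p under 0.05, where 11.1% of all genes did.

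The mean of the 12 other keratinocyte genes, relative to the control mean, was 0.63 in the Res 177 tumour, between -0.05 and 0.07 in control tumours and between -0.17 and 0.12 in Res 499 tumours. On the second design it was 0.36 in Res 177. The mean of the 53 keratins was 0.80 in the Res 177 tumour, between -0.03 and 0.05 in control tumours and between -0.07 and 0.08 in Res 499 tumours. The list of 9 melanocyte genes stood at 0.07 in Res 177. A list of 5 leukocyte genes stood at 0.98 in Res 177, between -0.31 and 1.69 in Res 499 and between -0.20 and 0.28 in control tumours. The part of skin or leukocyte content in the keratin values was not tested. In RNA of whole tumours, more cells of a type and more RNA per cell cannot be told apart.

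Res 499 tumours were compared with control tumours on the first design, where 0 of 53 keratins and 0 of 51 keratin-associated proteins were called by limma with Benjamini-Hochberg adjustment over 22180 genes, against 0.212% of all genes (0.0992% higher and 0.113% lower). The smallest adjusted p of a member was 0.340. At an unadjusted limma p under 0.05 stood 4 of the 104 members (3.85%), against 11.1% of all genes. The range of the 7 Res 499 tumours overlapped that of the 4 control tumours for every member, where 1.9% of all genes had ranges that did not overlap. The median difference was 0.00 over keratins (range -0.24 to 0.49) and 0.01 over keratin-associated proteins (range -0.20 to 0.18), with 27 of 53 and 27 of 51 above 0. It was -0.04 over the 7 inner root sheath keratins and -0.04 over Krt14, Krt1 and Krt10. Res 499 and Res 177 are set here against the same 4 control tumours.

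Krt80, a type II keratin of many differentiating epithelia, had the smallest p. It read 6.73, 7.30, 7.05 and 7.06 in the 4 control tumours, between 6.89 and 8.06 (median 7.53) in the 7 Res 499 tumours and 7.59 in the Res 177 tumour. Its limma difference in Res 499 was 0.49 (SE 0.19, adjusted p = 0.340), and the tumours of the groups overlapped. On the second design it read 7.69 in the control tumour and 8.51 in the Res 177 tumour. Krt72 differed by -0.24 (SE 0.10, adjusted p = 0.371 by limma), Krtap6-2 by 0.18 (SE 0.07, adjusted p = 0.384 by limma) and Krtap19-5 by -0.18 (SE 0.07, adjusted p = 0.392 by limma). The next smallest limma p-values belonged to Krt75 at 0.11 and Krt20, a keratin of the gut lining, at -0.10, and to Krtap24-1 and Krtap19-3, both at 0.13. The limma standard error of Krt25 was 0.07 around a difference of 0.04, and that of Krt71 0.10 around -0.08. A difference that misses the threshold does not show equal levels.

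**Figure D5:**
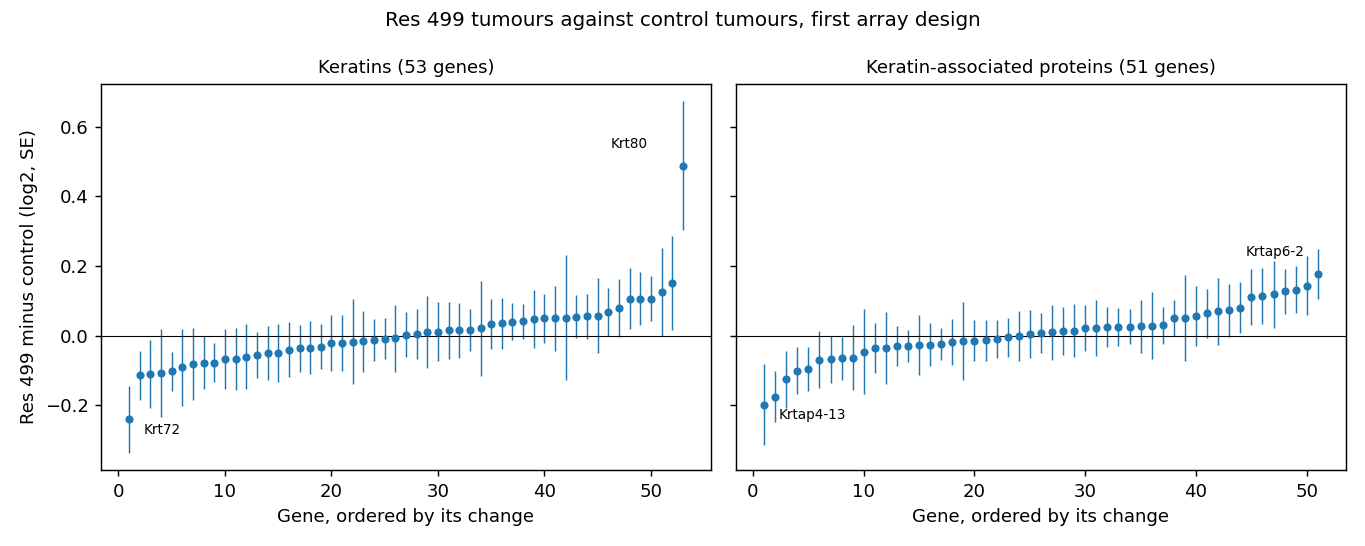
Res 499 minus control (log2) of each keratin (left) and keratin-associated protein (right) on the first array design, ordered by size, with bars for the limma standard error. The points lie between -0.24 and 0.49, and Krt80 stands apart at the upper end.

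Over the 11 other tumours of the first design the median range of a gene was 0.43 for keratins, 0.35 for keratin-associated proteins and 0.48 for all genes. The widest ranges were 1.33 for Krt80 and 0.67 for Krtap5-4. No single one of these tumours was the highest throughout. Res 499 replicate 6 was the highest of the 11 for 10 of 53 keratins (18.9%), against 9.44% of all genes, control replicate 5 for 9 of 53 keratins, against 11.1%, and Res 499 replicate 3 for 0, against 5.23%. Of 51 keratin-associated proteins, Res 499 replicate 7 was the highest for 9 (17.6%), against 8.72% of all genes, and Res 499 replicate 3 for 0.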

How the data were processed

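Total RNA of 14 tumours was measured. The authors deposited log2 values per probe set, made with RMA in oligo, per the submitters' processing notes, for each array design apart. Tool versions, genome build and annotation: not given in the sources used here. At dim probe sets background signal narrows differences on this scale. Groups follow the subline label. Replicates were numbered in accession order. Whether each tumour came from its own mouse is not stated, so a p-value reflects only spread among these samples, which may be technical. Array number limits the precision.

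Only probe sets with 1 gene symbol were used. Genes were fitted in R 4.3.3 by limma 3.58.1 (lmFit, eBayes), over 3 groups of the first design, with Benjamini-Hochberg adjustment over all 22180 genes and a threshold of 0.05, and the step was tested on simulated data. Res 177 has 1 tumour a design and was described by differences. Members, lists and tests were chosen with earlier results of these data known. Named were the 7 inner root sheath and 4 epidermal keratins of the selection, the largest differences of each subfamily in Res 177 (8 up and 3 down on the first design, 4 each way on the second), the 4 smallest p in Res 499, and up to 4 genes of each list. Others named (neighbours, other epidermal keratins, Krtap14, genes shared by the designs, Foxn1, Hoxc13, Jup, Pkp2, Pmel and Trp63) were chosen after their values were seen. Alternatives covered filters, probe sets, normalization, prior, array weights, fold, single tumours left out and leukocyte content.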

Additional observations from a re-analysis of the deposited data

Results flagged for a closer look

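In Res 499 tumours, Krtap4-1, an ultra-high sulphur gene, stood apart in 1 tumour. Res 499 replicate 7 read 4.27, the next 4.14 and the lowest 4.09, so that the gap took 0.684 of the whole range. This was 1 of 58 such checks over named genes in the 4 control and the 7 Res 499 tumours, and chance alone marks about 1 in 20 groups.

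Probe sets annotated to several genes, with a keratin or keratin-associated protein among them, were used in no comparison. On the first design 4 of 12 such probe sets were at least 2-fold higher in the Res 177 tumour than the control mean, with differences between 0.01 and 5.30. On the second design 1 of 15 was, with differences between -0.83 and 2.29. No gene is named from these probe sets.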

How the results depend on the processing

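The calls in Res 499 did not change. In 19 alternatives 0 keratins and 0 keratin-associated proteins were called, also with each tumour left out in turn (0 to 0), and the smallest adjusted p of a member lay between 0.109 and 0.446, while the number of genes called by limma ranged from 6 to 268. The counts in Res 177 depend on dim genes. On the first design the 16 keratins became 1 without the lowest 50% of genes and 9 at 3-fold, and the 15 keratin-associated proteins became 1 without the lowest 25%, 1 without the lowest 50% and 8 at 3-fold. On the second design the 9 keratins became 2 without the lowest 50%, 16 at 1.5-fold and 4 at 3-fold, and the 10 keratin-associated proteins became 3 without the lowest 50% and 19 at 1.5-fold. Of the 104 members on the first design, 42 lie in the lowest 25% and 90 in the lowest 50%. Leaving out each control tumour gave 16 and 15 throughout. With Res 499 tumours as the reference, an alternative chosen after seeing the data, the first-design counts stayed within 1.5 times. The medians in Res 499 ranged from -0.07 to 0.01 for inner root sheath and from -0.08 to 0.04 for epidermal keratins. No paired analysis was possible because replicate numbers only follow accession order.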

Other observations

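Lists of other skin structures were read in the same way, as values with no test. Of 8 sebaceous gland genes and of 7 dermal papilla genes, 0 were at least 2-fold higher in Res 177 on either design, with medians of 0.14 and 0.18 on the first and 0.06 and 0.02 on the second. Of 10 skeletal muscle genes 0 were on the first design, where the median was -0.07, and 1 on the second, Acta1, the skeletal actin, by 1.0. Of 6 adipocyte genes 0 were on either design. In 1 Res 499 tumour the adipocyte list stood 1.93 above the control mean.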
